A study of Mus musculus with 36 samples.

Results

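The state of 3T3-L1 preadipocytes before adipogenic induction was compared between cells labelled zfp217-/- (KO) and cells labelled wild type (WT), both at day 0. The genes described are those whose average over the 6 day 0 RNA-seq libraries was 1 FPKM or more, 12949 of the 52505 genes in the deposited table. FPKM counts sequenced fragments relative to library depth and to the length of the gene, so that levels can be compared between genes. 3T3-L1 is an established mouse fibroblast line that accumulates fat after treatment with a hormone cocktail of dexamethasone, isobutylmethylxanthine, insulin and indomethacin. All cells were grown in medium with fetal bovine serum and antibiotics, and the day 0 cells were sampled before the cocktail. Each genotype had n = 3 day 0 libraries of Trizol-extracted RNA, and 6 further libraries from day 2 of treatment entered only the estimate of the spread. The labels do not say how the deletion was made, whether the KO cells are 1 clone, or whether replicates are separate cultures. The p-values therefore reflect no more than the variation among the libraries, which may be technical, and genotype cannot be told apart from the history of a clone or culture.

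Zfp217 is a zinc finger protein that works in repressor complexes with CtBP, CoREST and the histone demethylase LSD1. It has also been linked to N6-methyladenosine (m6A), a methyl mark on messenger RNA that is placed by the METTL3 complex and removed by FTO. Preadipocytes such as 3T3-L1 grow until they touch, stop dividing, and on induction pass through a few further divisions before the adipogenic factors C/EBP and PPARγ take over. They secrete a collagen-rich matrix, which is remodelled as they turn into fat cells.

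The 6 libraries held 18075058 to 21505408 reads, as recovered from the FPKM values. Pearson's r across genes was 0.9917 to 0.9953 between libraries of a genotype and 0.8717 to 0.8768 between genotypes. The first principal component carried 93.5% of the variance and separated the genotypes, and the second, with 2.46%, separated WT replicate 3 from the other WT libraries. In WT replicate 3, 35 genes were at least 4-fold from both other libraries of the group, against 14 to 26 in the other libraries. The ribosomal RNA gene mt-Rnr1 was at 7.01, 5.87 and 264 FPKM in WT and 379 to 396 in KO, and the heat shock gene Hsp90aa1 at 27.2, 28.5 and 886 in WT and 174 to 178 in KO. Rpl12 was at 89.3, 86.2 and 1372 in WT and 678 to 680 in KO. Calls that turn on this library are given with and without it where the genes are described.

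The targeted gene was examined first. Zfp217 (ENSMUSG00000052056, chr2:170108643-170151677 on GRCm38.p6) was at 21.7, 21.9 and 22.3 FPKM in the WT libraries and at 25.2, 25.8 and 26.9 in the KO-labelled libraries. All KO-labelled libraries were thus above all WT libraries, at 26.0 ± 0.883 against 22 ± 0.279 (SD, n = 3), a log2 change of 0.23 (SE 0.036, adjusted p = 7.61e-05 by limma). The exact 2-sided permutation p was 0.1, the smallest that 3 against 3 libraries can give. The message level goes against the label, and FPKM over a whole gene does not show whether an exon is lost or a reading frame broken. All directions below are between libraries as labelled.

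Cells labelled KO and WT differed across most of the expressed genome before induction. Of the 12949 genes tested, 10789 passed an adjusted p of 0.05 (83.3%), 5036 of them higher (38.9%) and 5753 lower (44.4%) in the KO-labelled libraries. A called difference of at least 2-fold was seen in 1410 genes higher (10.9%) and 1567 genes lower (12.1%), and one of at least 10-fold in 43 and 100 genes. In 10965 genes (84.7%) the 3 libraries of one genotype did not overlap the 3 of the other. The median log2 change was -0.06, with quartiles of -0.56 and 0.48, and the median SE was 0.056. For genes at 10 FPKM or more, the median SD was 2.91% of the mean in WT and 2.86% in KO, so small changes passed the test and 3484 genes lay within 1.2-fold. Which direction held more genes depended on the scale. After TPM scaling 5610 genes were higher and 5051 lower, and after quantile normalization 5503 and 5299, while the median of all genes shifted by 0.10 and 0.07.

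**Figure D1:**
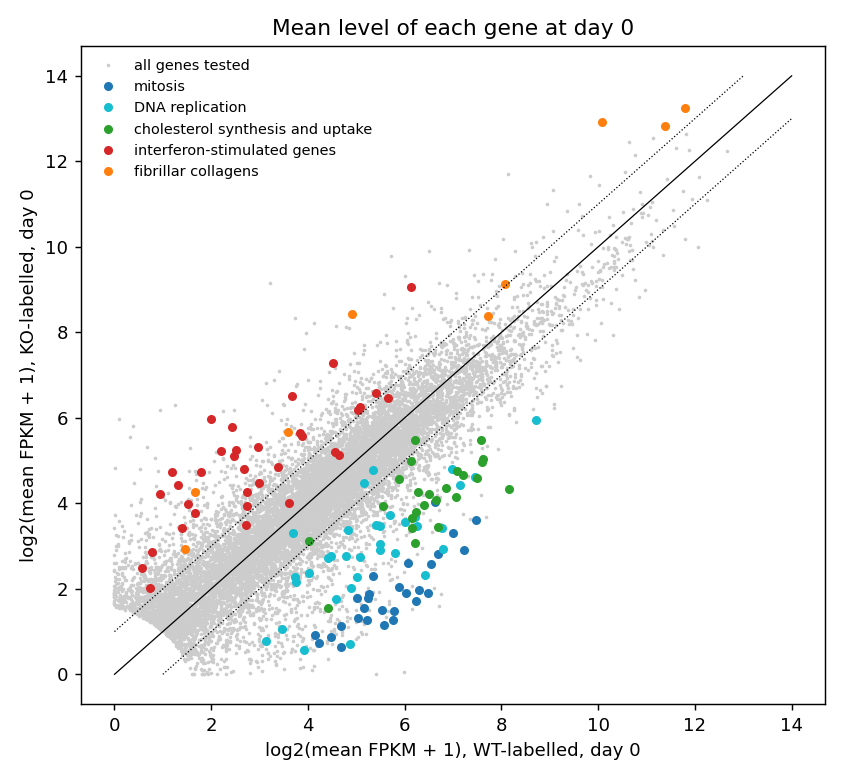
Each grey point is 1 of the 12949 genes tested, with its mean over 3 WT-labelled libraries on the x axis and over 3 KO-labelled libraries on the y axis, both as log2(FPKM + 1). The solid line marks equal levels and the dotted lines a 2-fold difference on this scale. Mitosis, DNA replication and cholesterol genes lie below the solid line, and interferon-stimulated and fibrillar collagen genes above it.

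On the same scale as the test, the largest rises included genes of secreted and membrane proteins. Apod, a lipid-binding apolipoprotein, was at 7.93, 7.86 and 8.88 FPKM in WT and 566, 565 and 563 in KO, 68.7-fold higher. Serpinb7, a protease inhibitor, was at 0.164, 0.043 and 0 in WT and 61.2 to 64.0 in KO. The bicarbonate transporter gene Slc4a10 had 0.195 to 0.38 FPKM in WT and 54.3 to 56.6 in KO. All 3 had WT levels far below those of every KO library. Enpp2, which encodes the enzyme autotaxin that makes lysophosphatidic acid, rose 56.4-fold from 1.37 ± 0.0557 to 77.3 ± 0.727. The guidance factor gene Sema3c rose 26.3-fold from 12.2 ± 0.848 to 322 ± 4.75. Ostn (osteocrin) went from 0.257 ± 0.104 to 45.6 ± 1.34, Fxyd1, a regulator of the sodium pump, from 0.591 ± 0.295 to 38.8 ± 2.22, and Clec3b (tetranectin) from 0.78 ± 0.0971 to 32.4 ± 0.581. On the fitted scale of log2(FPKM + 1), all of the 10 largest falls but Ctsz and Myl9 were genes of dividing cells. By the ratio of means, some genes at lower levels, such as Fbln1 and Sfrp2, fell further. Pimreg fell from 107 ± 3.71 to 2.68 ± 0.501, Pclaf, a PCNA partner, from 69.9 ± 1.56 to 1.9 ± 0.194, Uhrf1, which recruits the maintenance DNA methylase, from 96.5 ± 1.64 to 3.04 ± 0.234, and the ubiquitin-conjugating enzyme gene Ube2c from 74.2 ± 3.66 to 2.24 ± 0.21.

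**Figure D2:**
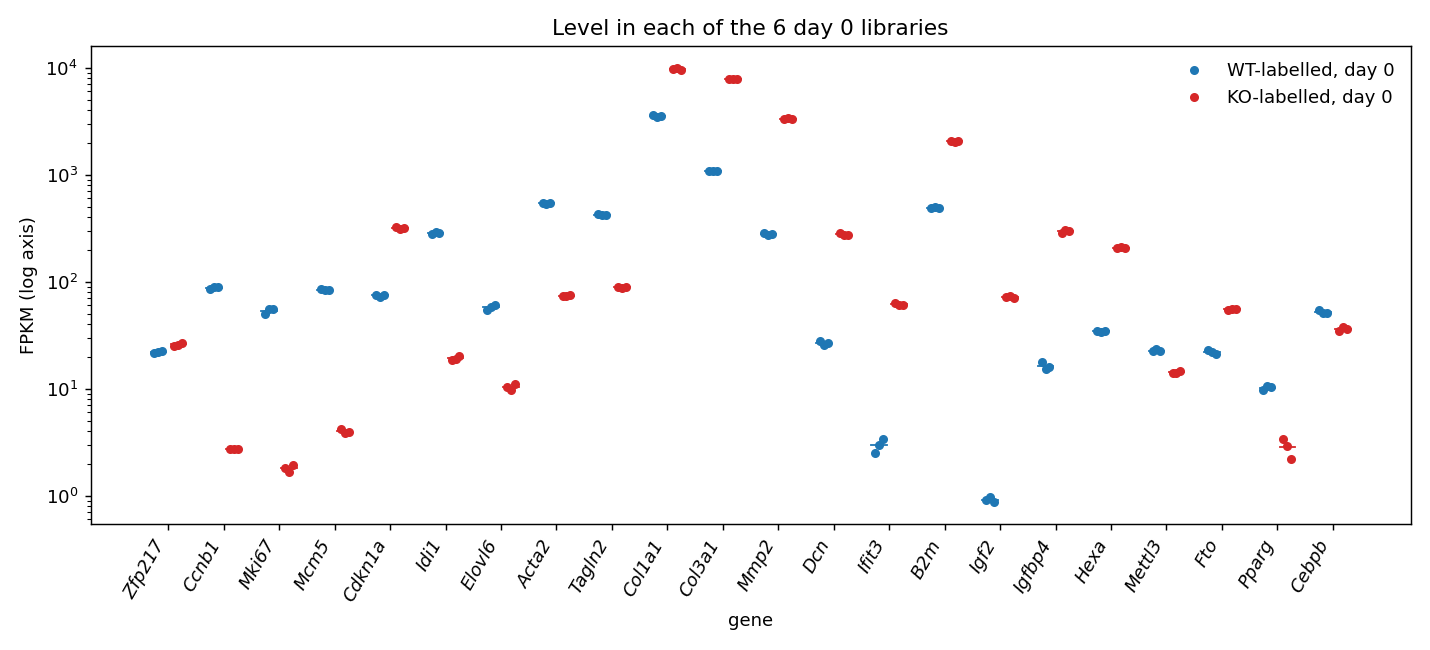
Points show the FPKM (log axis) of 22 named genes in each of the 6 day 0 libraries, with a short line at the mean of the 3 libraries of a genotype, WT-labelled in blue and KO-labelled in red. The points of a genotype lie close together and, for the genes shown, the genotypes do not overlap.

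The most abundant messages also changed order, mitochondrial and predicted genes left aside. In WT the elongation factor Eef1a1 led at 6508 ± 77.6 FPKM, followed by genes that include Hsp90ab1, Rplp1, Rpl41, Col1a1 (3536 ± 70.4) and Actb (3529 ± 49.1). In KO, Col1a1 led at 9746 ± 249, followed by Col3a1 (7789 ± 33.2) and Col1a2, then Sparc (5646 ± 40.6), a collagen-binding protein, Eef1a1 (4857 ± 29.0) and the proteoglycan Bgn (4509 ± 12). Actb, encoding cytoplasmic actin, fell 3.06-fold to 1154 ± 11.2, and Lgals1 (galectin-1) fell 2.12-fold. The growth factor Ptn (pleiotrophin) rose 3.51-fold to 3207 ± 47.5 and Fth1, the ferritin heavy chain, 2.28-fold to 3422 ± 21.8. The 10 most abundant genes of any kind held 5.97% of the summed FPKM in WT and 9.57% in KO. Between the genotypes, fibrillar collagens went from 1.1 to 1.13% of the summed FPKM up to 3.96 to 4.09%. A list of 42 cytosolic ribosomal protein genes, without Rpl41 and Rpl12, went from 6.45 to 6.63% down to 4.84 to 4.96%.

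**Figure D3:**
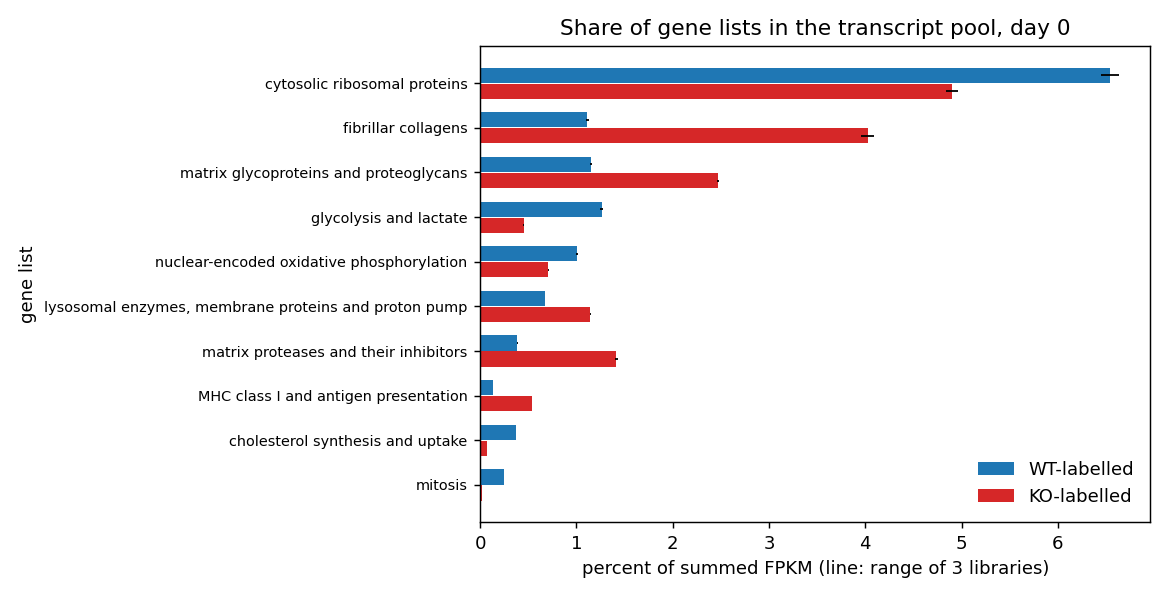
Bars show the share of each gene list in the summed FPKM of a day 0 library (midpoint of 3 libraries), and black lines run from the lowest to the highest library. Matrix, lysosomal and MHC class I genes take a larger share in KO-labelled libraries, while ribosomal, glycolysis, oxidative phosphorylation, cholesterol and mitosis genes take a smaller one.

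Genes of cell division were far lower in the KO-labelled libraries. All 28 mitosis genes on the list fell, by a median log2 change of -3.86 against -0.06 over all genes, and each by more than 2-fold. In bulk RNA, fewer dividing cells and less message per dividing cell cannot be told apart. Ccnb1, a cyclin that activates Cdk1 for mitosis, was at 86.4, 89.4 and 89.1 FPKM in WT and 2.71, 2.71 and 2.75 in KO, 32.4-fold lower. The proliferation marker Mki67 was at 50.1 to 55.7 in WT and 1.68 to 1.94 in KO, and Top2a, the topoisomerase that untangles chromosomes, at 177 to 179 and 11.1 to 11.3. The kinase gene Cdk1 had the smallest fall of the list, 6.39-fold, from 97.5 ± 2.98 to 15.3 ± 0.477. Thus even this member was separated between the genotypes by far more than the spread of the libraries. Of the mitosis genes, 23 had a promoter window in the RefSeq table of GRCm38.p6 (250 bases before to 50 after the start). The letters TTTGAA, the cell cycle homology region element (CHR), stood on either strand in 17 of these windows (73.9%), against 20.2% of all 27025 windows, 14.1% of those of tested genes and 19.2% of those of genes at least 2-fold lower. CCAAT, the box bound by NF-Y, stood in 18 (78.3%), against 41.1%, 43.8% and 50.9%. Stretches with these motifs upstream of the start are shown because both genes fell over 20-fold, with the CCAAT boxes of Ccnb1 and the CHR of Cdc20 in capitals.

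Ccnb1 (chr13:100786524-100786610, minus strand): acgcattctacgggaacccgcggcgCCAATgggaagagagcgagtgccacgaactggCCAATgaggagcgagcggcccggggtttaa
Cdc20 (chr4:118437344-118437386, minus strand): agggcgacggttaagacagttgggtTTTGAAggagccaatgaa

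DNA replication genes fell as well. All 34 tested members were lower, 31 of them by at least 2-fold, with a median log2 change of -2.42. Mcm5, part of the replicative helicase, was at 85.0, 83.0 and 84.0 FPKM in WT and 4.23, 3.88 and 3.92 in KO, and the loading factor Mcm10 at 26.7 to 29.3 and 0.414 to 0.942. Pcna, the sliding clamp of DNA polymerase, fell 6.9-fold but was still at 60.6 ± 2.66 in KO. The smallest fall of this list was that of Gins3, a helicase subunit, with 11.9 FPKM in WT and 8.85 in KO. E2F-like letters (TTTCCCGC) stood in 6 of 27 replication windows (22.2%), against 1.24% of all windows, 2.49% of those of tested genes and 4.93% of those of genes at least 2-fold lower.

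Among the regulators of G1, 17 of 20 fell and 3 rose. The cyclin genes Ccne1 and Ccne2 fell by 3.01 and 3.15 on the log2 scale, and the repressors E2f7 and E2f8 by 4.18 and 3.09. Ccnd1 fell 2.62-fold from 146 ± 2.34 to 55.7 ± 0.594, Cdk4 had 527 FPKM in WT and 192 in KO, and Myc, the growth-promoting transcription factor, fell 5.05-fold from 53.7 ± 0.578 to 10.6 ± 0.367. Members of the retinoblastoma family moved apart. Rbl1 (p107), the member made in cycling cells, was at 16.8, 17.4 and 17.5 in WT and 2.44, 2.03 and 2.28 in KO, whereas Rbl2 (p130), the member of quiescent cells, was at 8.94, 7.47 and 7.8 in WT and 24.5, 23.4 and 24.3 in KO. The genotypes did not overlap for either gene, with log2 changes of -2.49 (SE 0.075) and 1.47 (SE 0.062). Rb1 itself moved from 9.66 to 11.6 FPKM.

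The cyclin-dependent kinase inhibitor Cdkn1a (p21), which arrests cells in G1, was at 74.9, 72.7 and 75.9 FPKM in WT and 324, 314 and 318 in KO. Its mean was thus 4.28-fold higher, with a log2 change of 2.08 by limma (SE 0.027, adjusted p = 2.68e-14). Over the list of kinase inhibitors 3 of 7 rose and 4 fell, beside 38.9% and 44.4% over all genes. The median log2 change of this list was -0.17. Cdkn2a, which encodes p16 and ARF, was at 304 and 334 FPKM and Cdkn2b at 55.1 and 70.9, both small rises. Cdkn3, a phosphatase of dividing cells, fell by 3.06 on the log2 scale, Cdkn2c by 0.92, Cdkn2d by 0.65 and Cdkn1b by 0.17. Of the p53 target genes, 15 of 22 rose and 7 fell. Eda2r, a receptor of the TNF family, rose 13.3-fold from 8.84 ± 0.24 to 118 ± 2.74, and the death receptor gene Fas rose by 1.25 on the log2 scale. Trp53 itself fell 2.34-fold from 100 ± 1.53 to 42.8 ± 0.818. Mdm2, the ubiquitin ligase that degrades p53, stood at the unusually high level of 2739 ± 12.1 in WT and 3071 ± 38.4 in KO, a log2 change of 0.17 that became -0.01 after quantile normalization. Ckap2 led the falls with a log2 change of -2.69. It is a spindle protein, and thus also a gene of dividing cells.

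The extracellular matrix took the opposite course. All 9 tested fibrillar collagens rose, 8 of them by at least 2-fold, with a median log2 change of 1.46. Col3a1, the main collagen of loose connective tissue, was at 1093, 1072 and 1080 FPKM in WT and 7771, 7827 and 7768 in KO, 7.2-fold higher. Col11a1, a minor fibril collagen, rose 11.8-fold from 29.2 ± 0.942 to 346 ± 0.708, and Col1a1 rose 2.76-fold. Of the basement membrane genes, 11 of 13 rose, led by Lama4 (log2 change 2.36) and Col4a5 (2.29), and the linker Nid1 fell by 0.66.

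Among matrix glycoproteins and proteoglycans, 19 of 26 rose and 6 fell. The small leucine-rich proteoglycan Dcn, which binds collagen fibrils, was at 27.7, 25.7 and 26.5 FPKM in WT and 288, 272 and 276 in KO. Its relatives moved likewise, with Ogn at 23 and 284 FPKM and Aspn at 46.6 and 472, and the microfibril protein Mfap5 was at 1.93 and 38.5. Fbln1, a fibulin, went the other way, from 16.6, 15.2 and 16.0 FPKM in WT to 0.0262, 0.0881 and 0.112 in KO. The large proteoglycan Vcan (281 and 102 FPKM) and osteopontin, Spp1 (524 and 209), fell as well. Fbn1, the backbone of microfibrils, was at 143 and 145 FPKM and did not pass (adjusted p = 0.635).

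Genes for the processing of collagen rose in 14 of 18 cases. Lox, which cross-links collagen and elastin, was at 312, 311 and 314 FPKM in WT and 957, 952 and 961 in KO. The procollagen protease gene Adamts2 and the lysyl hydroxylase gene Plod2 rose by 1.83 and 1.51 on the log2 scale, while the prolyl hydroxylase subunit P4ha2 fell by 1.24. Matrix proteases and their inhibitors rose in 16 of 20 cases. Mmp2, a gelatinase, was at 287, 274 and 280 in WT and 3291, 3361 and 3310 in KO, 11.8-fold higher. Its inhibitor Timp2 was at 261 and 1166 FPKM and its activator Mmp14 at 536 and 1332. Timp1, another metalloproteinase inhibitor, fell 2.74-fold from 279 ± 0.184 to 102 ± 2.36. The urokinase receptor Plaur fell by 1.85 on the log2 scale. Integrin subunits were divided, with 3 of 10 higher and 5 lower, beside 38.9% and 44.4% over all genes. Itgb1 was at 385 and 653 FPKM, and Itga6, a laminin receptor chain, fell by 1.90 on the log2 scale.

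Genes of the contractile cytoskeleton fell in 21 of 22 cases, with a median log2 change of -1.01. Acta2, smooth muscle actin and a mark of activated fibroblasts, was at 549, 533 and 542 FPKM in WT and 73.0, 73.6 and 75.4 in KO, 7.31-fold lower. Myl9, a myosin light chain, was at 43.8, 39.9 and 40.2 in WT and listed at 0 in all KO libraries. Actg2, another smooth muscle actin, was at 13.2 and 0.106 FPKM. The abundant Flna, an actin cross-linker, fell 2.39-fold from 884 ± 11.5 to 370 ± 3.65. Mylk, the kinase of the myosin light chain, was the exception and rose 4.06-fold from 4.48 ± 0.236 to 18.2 ± 0.227. The summed level of 8 smooth muscle markers was 547 to 565 FPKM in WT and 74.5 to 76.9 in KO, nearly all of it Acta2 and Actg2, and Myh11, Cnn1 and Tagln were at or under 0.195 in every library. Targets of the mechanosensitive coactivators YAP and TAZ were divided, 10 of 24 higher and 12 lower, beside 38.9% and 44.4% over all genes. Ccn1 and Ccn2, matricellular proteins, fell by 2.67 and 2.81 on the log2 scale, while Asap1 rose by 0.85 and Yap1 was at 101 and 121 FPKM.

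Interferon-stimulated genes rose in all 34 of 34 tested cases, 29 of them by at least 2-fold, with a median log2 change of 2.05. A further 2 listed members were below the filter of 1 FPKM. Oas3 was higher in every KO library, and Oasl1 was lower, at 0.157 to 0.238 in WT and 0.0392 to 0.0466 in KO. Ifit3, which binds viral RNA with Ifit1, was at 2.51, 2.99 and 3.42 FPKM in WT and 63.7, 61.0 and 61.0 in KO, 20.8-fold higher. Ifit1 was at 3.85, 4.99 and 4.25 in WT and 53.9, 53.2 and 54.6 in KO. The ubiquitin-like modifier Isg15 rose 7.1-fold and Bst2, which tethers budding virions, 7.78-fold from 68.7 ± 3.65 to 534 ± 7.59. Transcription factors of the interferon response rose too, Irf7 by 2.13 and Irf9 by 1.71 on the log2 scale. Some members, such as Ifit3 and Ifit3b or Oas1a and Oas1b, are near copies between which reads can be split. Of the list, 23 genes had a promoter window, and the interferon-stimulated response element (ISRE), searched on both strands as 2 copies of GAAA with any 2 bases between them, stood in 12 (52.2%), against 3.99% of all windows and 3.65% of those of tested genes. The upstream stretches of 4 such genes are shown because the element recurs in each, in capitals, where overlapping copies run together.

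Ifit3 (chr19:34583348-34583441, plus strand): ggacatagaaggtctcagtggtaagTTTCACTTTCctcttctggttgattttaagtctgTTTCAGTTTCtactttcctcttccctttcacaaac
Ifit1 (chr19:34640760-34640838, plus strand): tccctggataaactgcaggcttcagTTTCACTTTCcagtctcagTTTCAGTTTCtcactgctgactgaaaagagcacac
Bst2 (chr8:71537562-71537627, minus strand): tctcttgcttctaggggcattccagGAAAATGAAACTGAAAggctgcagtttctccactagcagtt
Isg15 (chr4:156200850-156200921, minus strand): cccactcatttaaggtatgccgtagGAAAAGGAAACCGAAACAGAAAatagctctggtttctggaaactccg

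In Ifit3 and Ifit1 the 2 matches read in the minus direction of the gene, and in Bst2 and Isg15 they read forward, with 2 and 3 overlapping matches. The nearest match began 66 bases before the start in Isg15 and 85 in Ifit1. The same letters stood in 7.49% of the windows of genes at least 2-fold higher and in 2.87% of those at least 2-fold lower.

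Genes upstream of the interferon response moved less. The 16 tested genes were receptors, sensors, adaptors, kinases, the factors Irf1 and Irf3, and Adar. Of these 8 rose and 5 fell, beside 38.9% and 44.4% over all genes, with a median log2 change of 0.13. The interferon genes Ifnb1 and Ifna4 were listed at 0 in all 6 libraries. The interferon receptor gene Ifnar1 was at 43.1, 42.8 and 42.4 FPKM in WT and 38.8, 39.8 and 38.0 in KO, and Ifnar2 at 21.4 and 22 (adjusted p = 0.515). The adaptor gene Mavs fell from 25.9 to 20.5, and Tmem173, encoding STING, was at 15.5 and 16.3 (adjusted p = 0.141). Tlr3, a sensor of double-stranded RNA, rose 4.09-fold from 3.7 ± 0.577 to 15.1 ± 0.672, and Tlr4 by 1.46 on the log2 scale.

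The genes of MHC class I presentation rose in 11 of 12 tested cases, with a median log2 change of 1.27, and 4 listed members were below the filter. B2m, the light chain of every class I molecule, was at 488, 496 and 486 FPKM in WT and 2058, 2021 and 2069 in KO. The heavy chain H2-K1 was at 30.7, 29.5 and 29.7 in WT and 184, 184 and 176 in KO, although reads of class I genes can be split among near copies. The class I activator Nlrc5 rose by 2.09 and the peptide transporter Tap1 by 1.26 on the log2 scale. Complement and acute phase genes rose in 7 of 8 tested cases, and 11 listed members were below the filter. C3, the central complement protein, was at 10.9 ± 0.13 and 62.0 ± 2.16 FPKM. C1s1, a protease of the first complement component, was at 9.53 and 135. C4b, 1 of the 7, was at 0.103 and 2.11 and reached the filter only through its KO level. The pentraxin gene Ptx3 fell by 1.99 on the log2 scale. Chemokines and cytokines were divided, 6 of 13 higher and 3 lower, beside 38.9% and 44.4% over all genes. Among them Ccl5 was at 1.14 and 4.34 FPKM and Mif at 532 and 174. The risers Ccl8, Tslp and Il33 averaged 0.581, 0.696 and 0.627 in WT and reached the filter only through their KO levels. A further 12 listed members were below the filter, among them Il6 and Lif, lower in every KO library, and Cxcl10 and Il15, higher in every one. The summed level of 10 macrophage and blood cell markers was 12.4 to 14 FPKM in WT and 28.0 to 28.8 in KO. Most of that gap was Lyz2, at 1.24 to 1.72 and 14.6 to 14.8, while the defining Adgre1 was listed at 0 in all libraries and Ptprc did not exceed 0.0325. Of 10 tested prostaglandin genes 8 fell, with the prostacyclin synthase Ptgis at 27.1 and 1.38 FPKM, and only Ptges rose, from 27.9 to 62.2.

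Sterol synthesis was lower throughout. All 24 tested genes of cholesterol synthesis and uptake fell, 22 of them by at least 2-fold, with a median log2 change of -2.49. Idi1, a step of isoprenoid synthesis, was at 278, 293 and 288 FPKM in WT and 18.5, 18.8 and 20.3 in KO, 14.9-fold lower. Nsdhl, an enzyme of the later steps, was at 102 and 9.83 FPKM. Srebf2, the transcription factor of this pathway, fell less, 1.67-fold from 72.9 ± 0.573 to 43.6 ± 0.669. CCAAT stood in 16 of 17 windows of this list (94.1%), against 41.1% of all and 50.9% of those of genes at least 2-fold lower, and the sterol element TCACCCCAC in 1 (5.88%) against 0.614%.

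Fatty acid synthesis fell in 12 of 15 genes. The elongase gene Elovl6 was at 54.9, 57.8 and 60.5 FPKM in WT and 10.3, 9.8 and 11 in KO, the desaturase gene Scd1 fell by 1.78 on the log2 scale and Fasn, the synthase itself, was at 203 and 86.5. Srebf1, which drives this branch, rose 1.12-fold and the NADPH-making enzyme Me1 by 0.66 on the log2 scale. Genes of cholesterol efflux rose in 7 of 11 cases and fell in 3. Apart from Apod, Mylip, a ubiquitin ligase, rose by 1.58 and Apoe by 0.84, while the HDL receptor gene Scarb1 fell by 2.23. Fatty acid oxidation was divided, with 11 of 23 higher and 6 lower, beside 38.9% and 44.4% over all genes. The carnitine carrier gene Slc25a20 rose by 1.52 and the peroxisomal thiolase gene Acaa1a by 1.39, and Ppargc1a (PGC-1α) was at 0.88 and 3.65 FPKM.

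Glycolysis genes fell in 16 of 21 cases, with a median log2 change of -1.28. Eno1 (enolase) was at 1299, 1233 and 1240 FPKM in WT and 242, 246 and 244 in KO, and hexokinase 2, Hk2, at 20, 19.6 and 20.3 in WT and 3.08, 3.32 and 3.19 in KO. Pkm (2595 and 903 FPKM) and Ldha (1373 and 372) fell as well. Only 3 members rose, the glucose transporter Slc2a1 1.58-fold from 153 ± 1.85 to 242 ± 1.78, the muscle phosphofructokinase Pfkm by 0.79 and the neuronal enolase Eno2 by 0.86 on the log2 scale. Gapdh was at 33.1, 40.3 and 43.7 in WT and 7.13, 9.59 and 50.4 in KO and did not pass (adjusted p = 0.132). Without KO replicate 3 its log2 change moved from -1.28 to -2.1 and passed (adjusted p = 0.0125 by limma). Gapdh has many processed copies in the mouse genome, so its level is uncertain.

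The citrate cycle and respiratory chain fell by less. Of 25 citrate cycle genes 20 fell, with a median log2 change of -0.43, led by Cs, citrate synthase, at 99.5 and 41.7 FPKM. Of 33 nuclear-encoded respiratory genes 30 fell, with a median of -0.47, and cytochrome c, Cycs, fell most, from 136 to 26.7. The transcripts made in mitochondria did not follow. Of 15 such transcripts 9 rose and none passed as lower. The oxidase subunit gene mt-Co1 was at 3515, 3837 and 3501 in WT and 6386, 6116 and 6515 in KO. Others varied within a genotype, such as mt-Co3, at 1745, 4096 and 862 in WT and 1301, 286 and 1456 in KO. The ribosomal RNA genes mt-Rnr1 and mt-Rnr2 had log2 changes of 4.00 and 3.98, which became 5.72 and 5.76 without WT replicate 3. Without that library Hsp90aa1 and Rpl12 passed as higher, with log2 changes of 2.63 and 2.94.

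**Figure D4:**
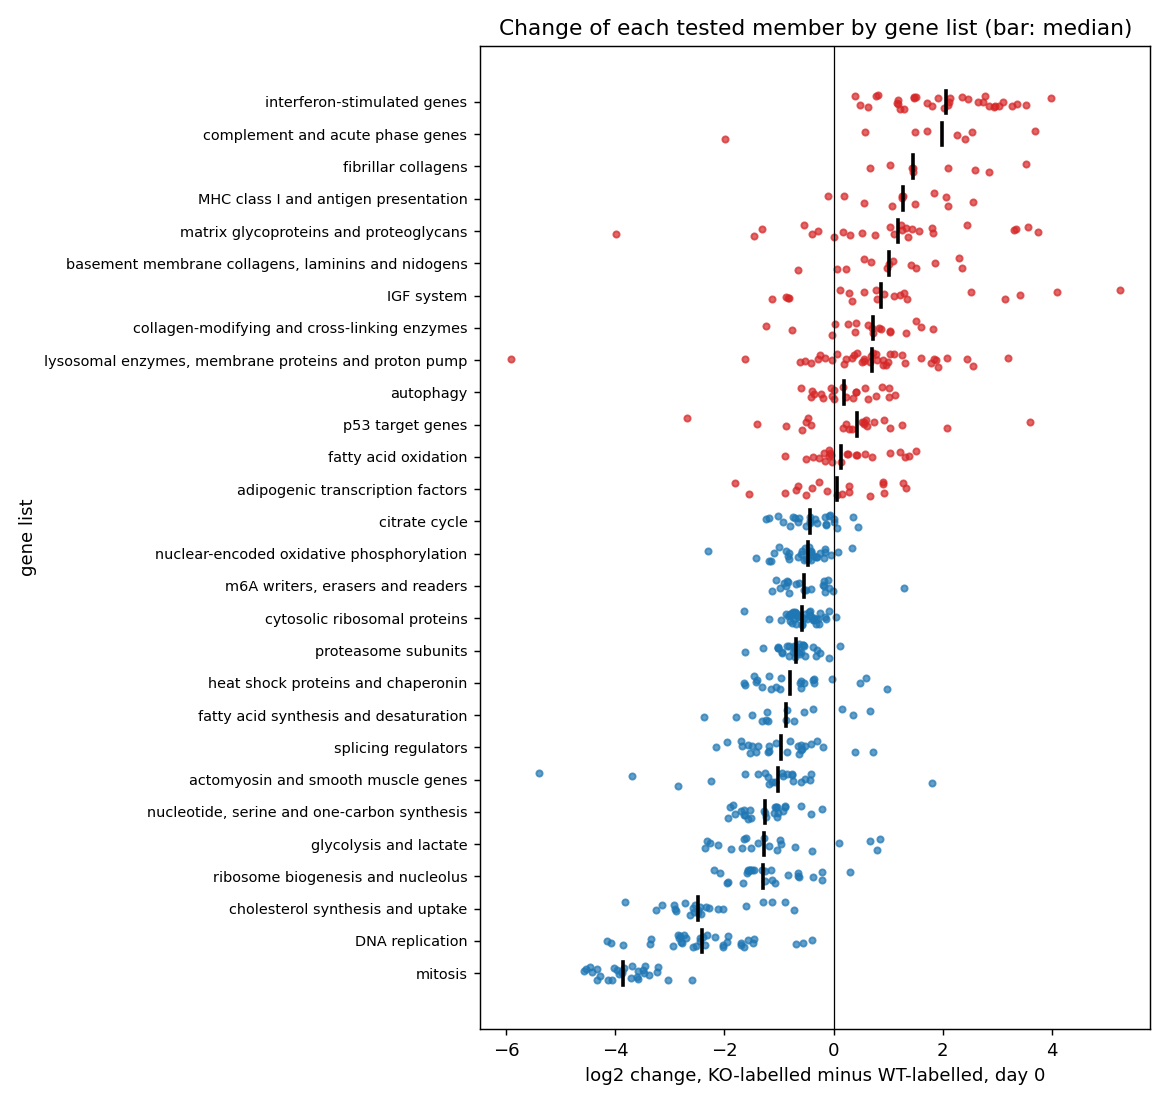
Each point is a tested member of the gene list named on the y axis, and the x axis is its log2 change between KO-labelled and WT-labelled libraries at day 0. Black bars are medians, and lists are coloured red for a median above 0 and blue for one below 0. The medians run from -3.86 for mitosis to 2.05 for interferon-stimulated genes.

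The machinery of growth fell broadly. All 26 genes of nucleotide, serine and one-carbon synthesis were lower, with a median log2 change of -1.25, among them Umps (-1.94), which makes pyrimidines, and Shmt1 (-1.89). Ribosome biogenesis fell in 24 of 26 genes with a median of -1.29. Nop56, a core protein of small nucleolar particles, was at 284 and 66.4 FPKM, and nucleolin, Ncl, at 525 and 176. The listed cytosolic ribosomal protein genes, a part of the family, fell in 39 of 42 cases but by less, with a median of -0.59. Their levels are uncertain where pseudogenes take reads. Of those listed, Rpl7a fell most, by 1.64 on the log2 scale.

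Other housekeeping groups moved in the same direction. Splicing regulators fell in 23 of 26 cases (median -0.95), with Hnrnpa1 at 445 and 98.9 FPKM. Srsf11 rose, from 128 to 213. Heat shock proteins and chaperonins fell in 18 of 22 cases (median -0.79), with the chaperonin subunit Cct6a at 327 and 105. Proteasome subunits fell in 29 of 30 cases (median -0.68), with Psma1 the exception at 330 and 358. Aminoacyl-tRNA synthetases fell in 18 of 20 cases (median -0.62), with Farsa lower by 1.97. Aars was at 318 and 316 FPKM, a log2 change of -0.01 that turned to 0.10 after TPM scaling and 0.23 after quantile normalization, where both passed. Glutathione and oxidative stress genes fell in 18 of 28 and rose in 8. Thioredoxin, Txn1, was at 503 and 148 FPKM, and the secreted superoxide dismutase gene Sod3 at 43.8 and 218. The stress-response list of ATF4 and the unfolded protein response was even, 10 of 24 higher and 10 lower, beside 38.9% and 44.4% over all genes. Atf4 itself was at 205 and 203 FPKM (adjusted p = 0.501 by limma).

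Lysosomal genes went against this fall. Of 40 tested members 31 rose and 7 fell, with a median log2 change of 0.70. Hexa, which degrades gangliosides, was at 34.9, 33.8 and 35 FPKM in WT and 207, 210 and 208 in KO. Acid alpha-glucosidase, Gaa, rose 5.47-fold from 104 ± 4.75 to 569 ± 16.9, and the cathepsin gene Ctsh went from 0.434 ± 0.141 to 12.1 ± 1.04. Cathepsins Ctsb, Ctsd, Ctsf, Ctsk, Ctsl and Ctso rose too, by 0.53 to 2.08 on the log2 scale. Ctsa fell by 0.28, and Ctsz stood furthest from its relatives. It was at 61.5, 60.5 and 64.9 in WT and 0.0384, 0.0645 and 0.0328 in KO, the largest fitted fall among the genes named. The regulator Tfeb was at 17.7 and 12.9 FPKM, a fall of 0.42. Autophagy genes rose in 12 of 22 cases and fell in 6, beside 38.9% and 44.4% over all genes, with a median log2 change of 0.19 and 3 members at 2-fold, among them Nbr1, a cargo receptor, at 47.9 and 106 FPKM.

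Genes of the IGF system rose in 16 of 20 cases and fell in 4, with a median log2 change of 0.86. The growth factor gene Igf2 was at 0.907, 0.974 and 0.87 FPKM in WT and 71.3, 73.3 and 70.7 in KO, 78.3-fold higher, and Igf1 at 10.0, 9.7 and 9.87 in WT and 61.5, 59.7 and 62.2 in KO. Binding proteins rose with them. Igfbp4 rose 18-fold from 16.4 ± 1.14 to 296 ± 8.61, and Igfbp5 was listed at 0 in all WT libraries and stood at 10.1, 9.35 and 9.64 in KO. The protease gene Pappa2, which cleaves binding proteins, was at 1.00 and 16.6. The signalling receptor Igf1r fell 1.81-fold from 42.4 ± 1.63 to 23.4 ± 0.691, whereas Igf2r, which clears IGF2, was at 161 and 374. The RNA-binding proteins Igf2bp1, Igf2bp2 and Igf2bp3, also readers of m6A, fell by 0.87, 0.82 and 1.13 on the log2 scale.

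Other growth factor genes were divided, 12 of 22 higher and 10 lower, beside 38.9% and 44.4% over all genes. Vegfc, a growth factor of lymphatic vessels, rose 9.91-fold from 7.87 ± 0.454 to 77.9 ± 4.07, while Vegfa was at 122 ± 1.52 and 117 ± 4.11. Egfr was at 5.96 and 45.7 FPKM, Fgf10 at 10.4 and 50.9 and Nrg1 at 23.8 and 111. Flt1, a VEGF receptor, was at 6.01 and 0.193, and Met, the HGF receptor, at 18.1 and 5.86.

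In the Wnt pathway 11 of 15 genes rose and 4 fell. The receptors Fzd1, Fzd2 and Lrp5 rose by 1.71, 1.44 and 1.62 on the log2 scale, with Fzd1 at 35.1 to 37.0 FPKM in WT and 118 to 121 in KO. The secreted modulator Sfrp2 was at 17.2, 16.2 and 15.9 in WT and 0.222, 0.14 and 0.0475 in KO. The Wnt5a receptor Ror2 was at 3.89, 3.74 and 4.18 in WT and listed at 0 in all KO libraries. Genes of TGF-beta and activin signalling were even, 10 of 21 higher and 10 lower, beside 38.9% and 44.4% over all genes. Ltbp4, which stores latent TGF-beta, rose by 1.69 and the follistatin-like gene Fstl1 by 1.43, while the TGF-beta-induced gene Tgfbi was at 10.3 and 0.0824 FPKM and the feedback inhibitor Smad7 fell by 1.14. BMP pathway and Id genes fell in 8 of 13 cases and rose in 4, beside 44.4% and 38.9% over all genes. Id1, an inhibitor of differentiation, was at 49.0 and 12.1, and the BMP antagonist Chrd at 0.907 and 2.68. In the Notch and Hedgehog pathways 5 of 14 rose and 7 fell, again near the shares over all genes. The falls included Notch1 (10.1 and 0.583) and the Hedgehog target Gli1 (9.03 and 0.854).

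The cells of both labels kept a fibroblast profile. The summed level of 12 preadipocyte and fibroblast markers was 10681 to 10993 FPKM in WT and 28168 to 28855 in KO, and 9 rose and 1 fell. Most of each sum, and nearly all of the gap, was the collagens Col1a1, Col1a2 and Col3a1 described above. They were at 3536, 2685 and 1082 FPKM in WT and 9746, 7281 and 7789 in KO. Pdgfra, the receptor that marks adipose progenitors, was at 78.6, 78.9 and 78.6 in WT and 196, 191 and 192 in KO. Dlk1 (Pref-1), which holds preadipocytes undifferentiated, was at 427, 407 and 413 in WT and 868, 900 and 872 in KO. Thy1 was at 519 and 538 FPKM and did not pass (adjusted p = 0.0717). Cd34 (3.94 and 0.28) and Cd44 (91.1 and 32.2) fell. Myod1, Myf5, Myog and Pax7 of muscle and Epcam and Krt18 of epithelium were listed at 0 in all 6 libraries. Adipocyte markers were near absent, with a sum of 1.88 to 2.34 FPKM in WT and 1.83 to 5.71 in KO, and Lep was listed at 0.

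Among adipogenic transcription factors 9 of 19 rose and 9 fell, beside 38.9% and 44.4% over all genes. Pparg, the master regulator of fat cells, was at 9.68, 10.6 and 10.4 FPKM in WT and 3.41, 2.91 and 2.22 in KO, 3.59-fold lower (log2 change -1.55, SE 0.087, adjusted p = 6.79e-09 by limma). The early factors Cebpb and Cebpd, which precede it, fell 1.43-fold and 1.67-fold, and Klf5 was at 5.03 and 0.729. Cebpa, its late partner, was at 3.44, 3.8 and 3.64 in WT and 4.99, 4.72 and 4.12 in KO, a small rise. Pparg lies on chromosome 6, where 63.4% of tested genes were called lower. Zfp423, a factor of preadipocyte commitment, rose 6.66-fold from a low level of 0.369 ± 0.0925 to 2.45 ± 0.334, and the glucocorticoid receptor gene Nr3c1 rose by 0.90. Of the inhibitors of adipogenesis 8 of 21 rose and 10 fell, near the shares over all genes. Dlk1 was the largest rise and the Notch target Hes1 the largest fall (52.7 and 19.7). Of the adipocyte genes 11 of 26 reached the test. Lpl, the lipase that frees fatty acids from lipoproteins, rose 3.41-fold from 55.9 ± 2.32 to 190 ± 3.62, and Fabp4 was at 1.18 and 1.96 (adjusted p = 0.165). Of 19 genes of lipid droplets, triglyceride synthesis and lipolysis 9 rose and 8 fell, also near the shares over all genes. The lipase Lipe was at 4.09 and 9.5 FPKM and the phosphatase Lpin1 at 10.1 and 3.74.

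Genes of the m6A machinery fell in 19 of 21 cases, with a median log2 change of -0.55. Mettl3, the catalytic writer, was at 22.5, 23.3 and 22.3 FPKM in WT and 13.9, 14.1 and 14.6 in KO, 1.6-fold lower. Rbm15, which recruits the writer, fell by 1.06 and the reader Ythdf2, which speeds decay of marked messages, by 0.98 on the log2 scale. The eraser gene Fto was the only member to rise, from 23, 22.1 and 21 in WT to 54.3, 55.2 and 56.0 in KO, 2.51-fold. The other eraser, Alkbh5, was at 43.6 and 43.4 (adjusted p = 0.837). Fto lies on chromosome 8, where 60.5% of tested genes were called higher. Of 11 repressor partners of Zfp217, 7 fell and 3 rose, beside 44.4% and 38.9% over all genes. None of them moved by 2-fold. Rcor1 (CoREST) fell by 0.79, Hdac1 by 0.78 and Ctbp2 by 0.69, Kdm1a (LSD1) was at 74.4 and 56.4 FPKM, and Phf21a rose by 0.62.

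Enzymes of DNA methylation and the Polycomb system showed members of a family moving apart. Ezh2, the histone methylase of dividing cells, was at 53.9, 57.9 and 55.1 FPKM in WT and 9.35, 9.59 and 9.84 in KO, while its relative Ezh1 was at 14, 14.3 and 13.9 in WT and 36.4, 32.9 and 35.2 in KO. Likewise the maintenance methylase Dnmt1 fell 3.59-fold from 88.0 ± 0.539 to 24.5 ± 0.758, and the de novo methylase Dnmt3a rose 2.13-fold from 24.3 ± 0.902 to 51.8 ± 0.509. Over the list, 13 of 28 rose and 10 fell, beside 38.9% and 44.4% over all genes. Among mesenchymal and limb transcription factors Snai1 was at 55.0 and 11 FPKM, Runx1 at 15.1 and 4.34 and Osr2 at 3.9 and 25.5. Of that list 10 of 25 rose and 12 fell, near the shares over all genes. Of the 12 tested Hox genes 4 rose and 5 fell, also near these shares. All moved by 0.55 or less on the log2 scale, with none at 2-fold.

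Imprinted genes rose in 11 of 16 cases and fell in 5. Ndn (necdin), which restrains growth, was at 14.6, 13.2 and 14.7 FPKM in WT and 192, 197 and 197 in KO. Airn was at 10.2 ± 0.531 and 78.5 ± 2.46, but it overlaps Igf2r on the other strand, and the strand setting of the counting is not given in the sources used here. Peg10 fell 9.7-fold from 25.5 ± 0.423 to 2.63 ± 0.228. In the clock list 9 of 16 rose and 7 fell, beside 38.9% higher and 44.4% lower over all genes, with the nuclear receptor gene Rora at 1.92, 2.24 and 2.28 in WT and 25.5, 26.3 and 26.4 in KO. The output gene Dbp was at 4.55 and 14.2. Ciart, at 10.8 and 3.21, and the core factor Arntl, at 17.7 and 10.5, were among those that fell. Glucocorticoid response genes were divided, with Fkbp5 5.32-fold lower and Dusp1, a phosphatase of MAP kinases, 3.18-fold higher. Immediate early and cyclic AMP genes fell in 15 of 23 cases and rose in 6. Fosl1 (23.8 and 4.13 FPKM) and the ERK-induced phosphatase gene Dusp6 (14.7 and 2.77) fell, and Fos (4.23 and 12.8) rose. Among channels and junction genes, Gja1 (connexin 43) was at 22.8 and 96.1, and the natriuretic peptide receptors moved apart, with Npr2 at 20.2 and 68.8 and Npr3 at 7.33 and 0.66.

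Some genes were present under one label only. With predicted genes and clone names left aside, 12 tested genes in KO and 26 in WT were under 0.05 FPKM in all 3 libraries. Of these, 10 and 14 were listed at 0. Beside Myl9 and Ror2, Hs6st2, an enzyme that sulfates heparan sulfate, was at 6.62, 5.75 and 5.64 FPKM in WT and no more than 0.0207 in KO. Beside Igfbp5, the heparanase relative Hpse2 was at 27.8, 27.5 and 26.7 in KO and no more than 0.0274 in WT, and the synaptic scaffold gene Dlg2 at 12.6, 12.7 and 11.7 in KO and no more than 0.0168 in WT. Kcnj2, a potassium channel, and Cadm2, an adhesion molecule, were at 8.63 ± 0.382 and 7.07 ± 0.377 in KO and under 0.05 in WT. Genes near Ctsz and Myl9 on chromosome 2 moved by far less than these 2 genes, some down and some up. The largest falls among them were those of Dsn1 near Myl9 (log2 change -1.64) and Prelid3b near Ctsz (-1.43). Stx16 near Ctsz rose by 0.78 and Ndrg3 near Myl9 by 0.37. Next to Ctsz (chr2:174427494-174439039), Nelfcd was at 40.5 and 15.8 FPKM and Atp5e at 127 and 105. Near Myl9 (chr2:156775408-156781657), Dlgap4 was at 33.5 and 23.7 and Rab5if at 42.3 and 16.8. Around Zfp217, its nearest neighbours Zfp64 (29.9 and 15.0) and Pfdn4 (43.6 and 18.7) fell. Further out most fell too, while Dpm1 (4.35 and 5.97) and Fam210b (3.7 and 5.79) rose.

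Changes were not even across chromosomes. On chromosome 8 the median log2 change of 684 genes was 0.36, which is 0.42 above that of all genes, and 60.5% were called higher and 27.5% lower. On chromosome 6 the median of 601 genes was -0.41, and 63.4% were called lower and 23.1% higher. Among the genes described above, Fto, Rbl2 and Mmp2 lie on chromosome 8 and Pparg on chromosome 6. The next departures were chromosome 12, 0.21 below all genes, and chromosome 5, 0.18 below. Chromosomes 1, 3, 7, 14 and 19 lay within 0.02 of all genes. No DNA copy number was measured, and its part in these values was not tested.

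**Figure D5:**
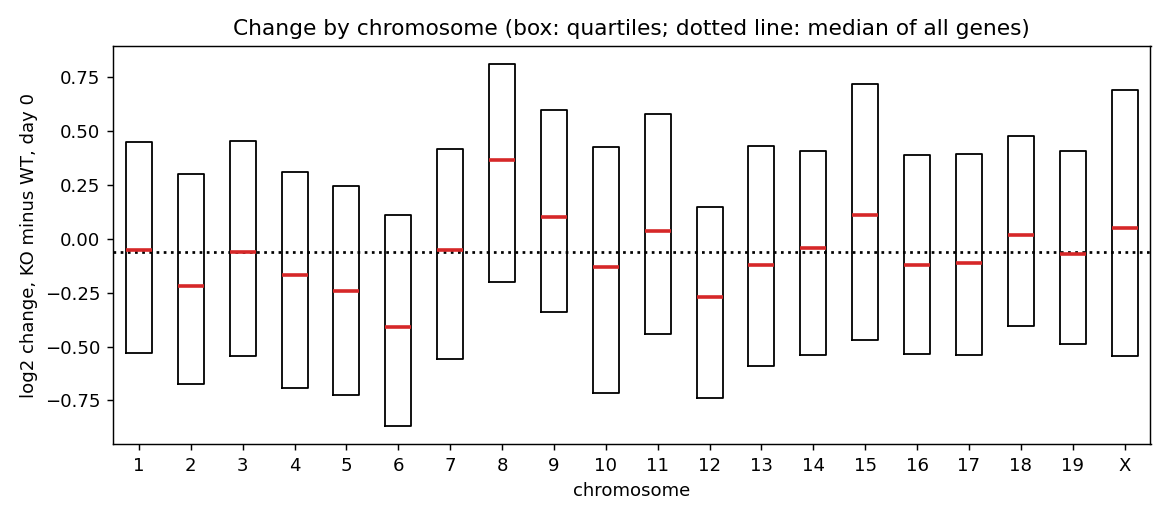
Boxes show the quartiles and red lines the medians of the log2 change (KO-labelled minus WT-labelled, y axis) of the tested genes of each chromosome (x axis), and the dotted line is the median of all genes. The median of chromosome 8 is the highest, at 0.36, and that of chromosome 6 the lowest, at -0.41, and the boxes overlap.

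A minority of abundant genes changed little on the fitted scale. Of 1124 named genes that averaged 100 FPKM or more, 129 had a 95% interval of the log2 change within 0.2 of 0. Sdha, a subunit of succinate dehydrogenase, was at 304, 304 and 308 FPKM in WT and 309, 305 and 307 in KO, and Copb2, a coat protein of Golgi vesicles, at 228, 229 and 227 in WT and 229, 231 and 228 in KO. Their libraries overlapped between the genotypes. Both were picked for their small change, so their values are a description. The size of so small a change depends on the scaling, as the values of Aars above show for that gene.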

How the data were processed

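RNA-seq libraries of 3T3-L1 cells were made with a NEBNext Ultra kit, per the labels' protocols. The deposited table gives FPKM values computed by the authors for 52505 genes. Per the submitters' processing notes the build was mm10 and the tools included TopHat2 2.0.12, Bowtie2 2.2.3 and HTSeq 0.6.1, with no roles stated. Which annotation and strand setting were used is not given in the sources used here. Whole read numbers were recovered from the FPKM values of all 30916 genes above 0 (tolerance 0.001 of a read). Between replicates the median chi-square was 1.39 to 1.86 times that of counting noise.

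Values were tested as log2(FPKM + 1) with limma 3.58.1 in R 4.3.3. Means of the 4 genotype and day groups were fitted over 12 libraries with 8 residual degrees of freedom and a trend of variance with level. Tests were 2-sided with Benjamini-Hochberg adjustment over 12949 genes and a threshold of 0.05. Changes on this scale understate those of low genes. On simulated data for this comparison (12949 genes), 12%, 86%, 94% and 100% of genes changed 1.2, 1.5, 2 and 4-fold were called, with 5 unchanged genes called. Same-numbered libraries did not deviate together (r = -0.0193, -0.0327 and -0.0154), so no replicate block was used. Positions and promoter windows are RefSeq's on GRCm38.p6, matched by symbol. Promoters were searched on both strands.

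The members, the 59 gene lists and the tests were chosen with earlier results of these data known. Named genes were Zfp217, the 10 largest rises and falls, the 10 most abundant per genotype, up to 3 members per list with the largest change in the direction most took and 1 in the other, 23 defining genes, 6 stable genes, genes under 0.05 FPKM in 1 genotype and genes 4-fold apart within a group. Predicted genes were left out. Other list members are examples chosen after their values were seen. Alternatives were other pseudocounts, filters and scalings, voom on recovered reads, no variance trend, day 0 libraries only, a replicate block, the treat test and leaving out each library. A few named genes are not reported here. The m6A immunoprecipitation samples were not analysed here.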

Additional observations from a re-analysis of the deposited data

How the results depend on the processing

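The numbers of genes called stayed within 1.5 times the reported 10789 (5036 higher, 5753 lower) under every setting except the treat test, which asks for more than a 1.5-fold difference and left 4448 genes, 2041 higher and 2407 lower. Under that test Zfp217 no longer passed (log2 change 0.23, adjusted p = 1 by limma), and its log2 change was 0.21 to 0.25 with any library left out and 0.34 and 0.35 after TPM scaling and quantile normalization. With each library left out in turn, 4887 to 4910 genes were higher and 5591 to 5632 lower. With no filter, 28656 genes were tested and 7182 were higher and 6786 lower, and at a mean of at least 5 FPKM 9772 were tested and 3636 and 4862 passed. A replicate block gave 10742 calls, 5007 higher and 5735 lower, though the numbers do not pair these libraries. Of 274 named genes, 27 no longer passed under the treat test, and direction turned in 5 whose change was small. Mdm2 went to -0.01 after quantile normalization. Aars went to 0.1 after TPM, 0.02 after median-of-ratios and 0.23 after quantile scaling, and to 0.0 without WT replicate 1. Leaving out single libraries took Selenow to -0.01, Flii to between -0.01 and -0.02 and Srrm2 to -0.01. The cause was not tested. Medians of the lists for YAP targets, TGF-beta, ATF4, inhibitors of adipogenesis, lipid droplets, mesenchymal factors, Hox genes, adipogenic factors and chemokines changed sign under at least 1 setting, so no median is given for them.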
